A study of Mus musculus with 6 samples.

Results

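The expression of genes that mark the resident, or large, macrophages of the peritoneal cavity was followed in sorted macrophages from mice with ovarian tumors. Of the 8 genes named for this purpose, 5 were on the panel of 754 genes, namely Timd4, Cxcl13, Selp, Marco and Alox15. Lyve1, Vsig4 and Fcna were not analysed here. Timd4, Cxcl13 and Selp were selected on their higher values after IRF5-NPs in an earlier analysis of these samples, so their difference between the groups is given as a description without a test. Marco and Alox15 were added by name. The samples were 6 preparations of RNA from peritoneal cells of adult C57BL/6J mice, sorted as F4/80+ and CD11b+ after lavage. All mice carried ID8 cells, a mouse ovarian cancer line, injected 7 weeks before treatment. The PBS group (3 samples) received 2 intraperitoneal doses of saline and the IRF5-NP group (3 samples) received 2 doses, on the same days 1 and 5, of nanoparticles loaded with 30 µg of mRNA for mouse IRF5, a transcription factor. The labels name IRF5 alone, whereas the study's methods describe particles that combine IRF5 mRNA with mRNA of its kinase IKKβ, use ID8 cells that express VEGF in albino mice of this strain, and give another dose and tumor age. A group given particles with an unrelated mRNA was not analysed here, so that the mRNA and the particle cannot be told apart. The labels do not say whether each sample came from a separate mouse, and the spread between samples may therefore be technical.

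Resident peritoneal macrophages are seeded before birth, carry high F4/80 and CD11b on their surface, and depend on the transcription factor GATA6. They stand beside small peritoneal macrophages, which arise from blood monocytes and carry high MHC class II. Timd4 encodes TIM-4, a receptor for phosphatidylserine through which these cells take up apoptotic cells. Cxcl13 encodes the chemokine that draws B cells into the body cavities, and Selp encodes P-selectin, an adhesion molecule better known from platelets and endothelium. Marco is a class A scavenger receptor that binds bacteria and particles, and Alox15 is the 12/15-lipoxygenase that oxidizes arachidonic acid and membrane lipids.

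The assay was the NanoString nCounter, in which color-coded probes are counted without amplification. The values are normalized counts, scaled by the authors to housekeeping genes. The counts behind them, recovered from a common factor in each sample, summed to between 683472 in IRF5-NP replicate 3 and 1830318 in PBS replicate 1. The background, taken 2 SD above the mean of the negative controls, stood at 25.6 to 37.8 normalized counts in 5 samples and at 79.4 in IRF5-NP replicate 3. All 5 resident genes lay above it in all 6 samples, and no gene was filtered out before the fit. The samples did not stand apart by group alone. PBS replicates 2 and 3 were the closest pair. A chi-square test of their recovered counts did not tell them apart at 0.05 (chi-square over degrees of freedom 1.07, p = 0.0798), and they were counted as 1 sample. The same quotient was 180 for PBS replicates 1 and 2, 97.9 for IRF5-NP replicates 1 and 2, and 7.10 for IRF5-NP replicates 2 and 3. Between the groups it was higher, from 240 (PBS replicate 3 and IRF5-NP replicate 3) to 622 (PBS replicate 1 and IRF5-NP replicate 2). The quotient grows with the counts, so pairs with IRF5-NP replicate 3 are not on a like scale. With PBS replicates 2 and 3 as 1, group means rest on 2 PBS samples and 3 IRF5-NP samples. Several values that depend on either replicate 1 are also given without it. Leaving out PBS replicate 1 leaves 1 counted PBS sample, so the log2 difference alone is given for that setting. The recovered counts of the IRF5-NP samples were whole for every gene, but a second check at low values did not accept them, which limits the counting intervals and chi-square values of these samples.

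The sequences before the transcription starts of Timd4, Cxcl13 and Selp are shown because these are the genes that were chosen for their higher values after IRF5-NPs. Of the 5 genes, 4 had an entry in RefSeq's mouse promoter table for GRCm38.p6, and Alox15 is named without its sequence. The 250 bases before the start lie at chr11:46810549-46810798, plus strand, for Timd4, at chr5:95956689-95956938, plus strand, for Cxcl13, and at chr1:164115014-164115263, plus strand, for Selp. Capitals mark GGAAGT, the core of sites of ETS factors such as PU.1, and the TATA box letters TATAAA, both chosen after the sequences had been read.
Timd4: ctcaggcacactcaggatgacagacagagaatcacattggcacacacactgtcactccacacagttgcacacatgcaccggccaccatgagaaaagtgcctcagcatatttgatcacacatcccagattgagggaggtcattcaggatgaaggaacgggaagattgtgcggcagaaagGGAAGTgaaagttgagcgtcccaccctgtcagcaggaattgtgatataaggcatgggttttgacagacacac
Cxcl13: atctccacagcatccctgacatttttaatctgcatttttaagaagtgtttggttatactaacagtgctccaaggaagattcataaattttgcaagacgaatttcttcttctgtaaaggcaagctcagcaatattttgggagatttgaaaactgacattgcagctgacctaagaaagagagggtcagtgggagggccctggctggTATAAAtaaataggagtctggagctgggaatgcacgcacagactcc
Selp: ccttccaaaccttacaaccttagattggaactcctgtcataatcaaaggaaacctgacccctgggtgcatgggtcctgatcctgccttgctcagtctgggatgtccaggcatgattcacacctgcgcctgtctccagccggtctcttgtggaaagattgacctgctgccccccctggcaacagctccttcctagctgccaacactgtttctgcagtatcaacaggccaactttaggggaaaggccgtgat
The letters were searched on both strands in the 250 bases of each start. GGAAGT began 72 bases before the start of Timd4, and 19.7% of the 32851 windows in the table hold it. TATAAA began 46 bases before the start of Cxcl13 and is held by 12.4% of the windows. Neither occurred before Selp or Marco. The GATA letters GATAAG, held by 6.55% of all windows, were in 0 of the 4 windows of resident genes. The same was true of GAAA followed after 2 bases by GAAA, a form bound by interferon regulatory factors (2.98% of all windows), of the longer PU.1 form GAGGAAGT, which contains GGAAGT (2.44%), and of AGGTCA repeated after 5 bases, a form bound by retinoic acid receptors (0.00913%). These counts describe the letters in these windows. In Timd4 the marked GGAAGT is followed directly by gaaa. Other forms bound by interferon regulatory factors, such as those joined to an ETS core, were not searched.

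Timd4, the phosphatidylserine receptor, had the largest difference of the 5 genes. It had 124, 197 and 207 normalized counts in PBS replicates 1, 2 and 3, and 472, 1182 and 1263 in IRF5-NP replicates 1, 2 and 3. The groups did not overlap, and IRF5-NP replicate 1 stood between the PBS samples and the other IRF5-NP samples. Its distance was 1.22 on the log2 scale above the mean of PBS replicates 2 and 3, and the mean of IRF5-NP replicates 2 and 3 was 1.37 above it. The values at the top of the order, from IRF5-NP replicates 2 and 3, had overlapping 95% Poisson intervals of 1112 to 1255 and 1153 to 1380, which cover counting error only. PBS replicate 1, at 103 to 149, lay below PBS replicate 2, at 170 to 227. The means were 163 ± 54.5 (SD, n = 2) and 972 ± 435 (SD, n = 3), a log2 difference of 2.48 with a standard error of 0.44. With 1 sample left out this ranged between 2.14, without PBS replicate 1, and 2.94, without IRF5-NP replicate 1.

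Cxcl13, the B cell chemokine, had 3579, 3725 and 3633 normalized counts in PBS replicates 1, 2 and 3, and 9053, 17931 and 19059.8 in IRF5-NP replicates 1, 2 and 3. It was the steadiest of the 5 genes within the PBS group, where the 95% intervals of all 3 samples overlapped, and IRF5-NP replicate 1 was again the lowest of its group. The groups did not overlap. The means were 3629 ± 70.8 (SD, n = 2) and 15348 ± 5481 (SD, n = 3), a log2 difference of 2.01 with a standard error of 0.36. The difference stayed between 1.81 and 2.35 whichever sample was left out.

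Selp, the gene of P-selectin, had 808, 2497 and 2471 normalized counts in PBS replicates 1, 2 and 3, and 3751, 8914 and 8109.8 in IRF5-NP replicates 1, 2 and 3. The groups did not overlap, but the PBS samples were themselves far apart, with PBS replicates 2 and 3 above PBS replicate 1 by 1.62 on the log2 scale. IRF5-NP replicate 1 exceeded PBS replicates 2 and 3 by 0.59. The means were 1646 ± 1185 (SD, n = 2) and 6925 ± 2778 (SD, n = 3), a log2 difference of 2.19 with a standard error of 0.53. Without PBS replicate 1 the difference was 1.38, the lowest of the settings with a sample left out, and without IRF5-NP replicate 1 it was 2.58, the highest.

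**Figure D1:**
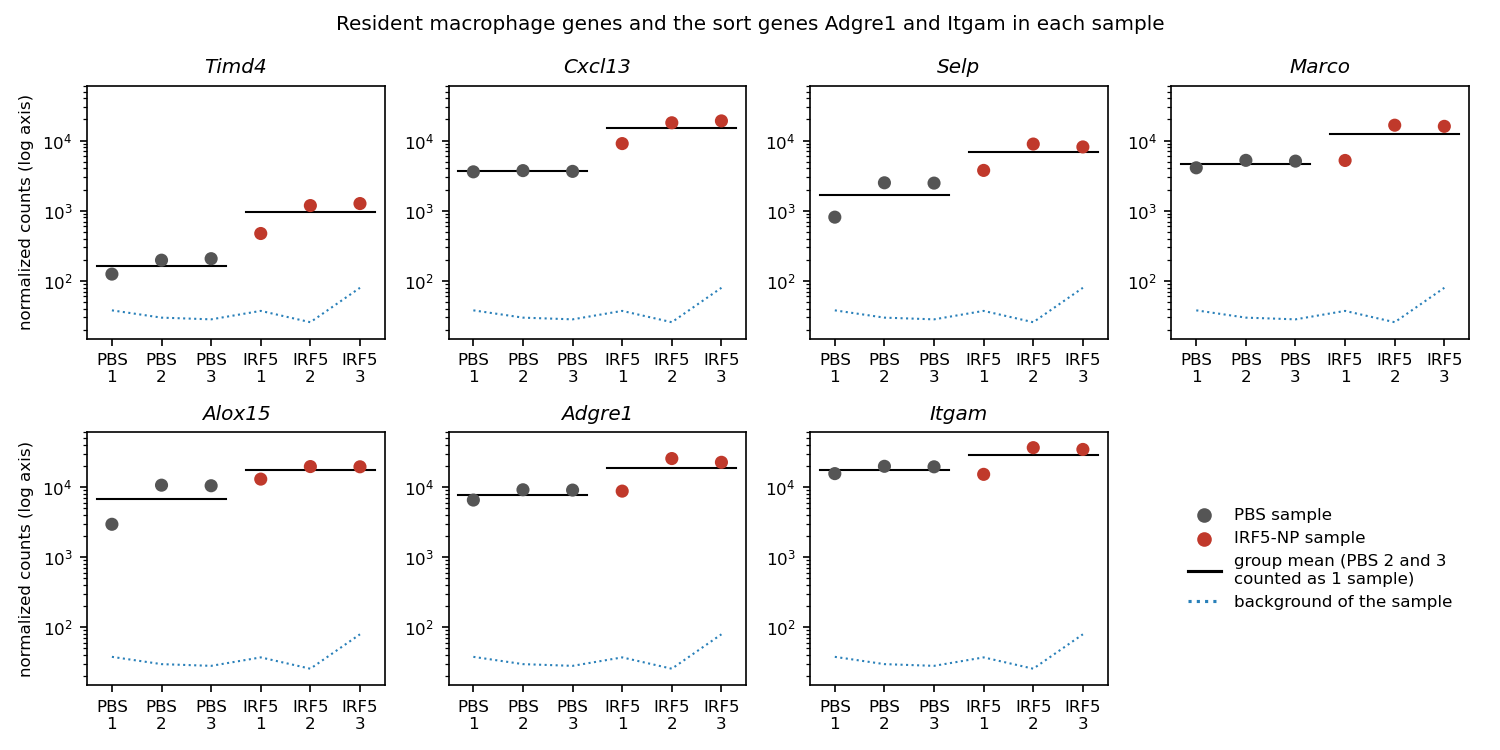
Normalized counts on a log axis in each of the 6 samples (grey, PBS; red, IRF5-NP) for the 5 resident genes and the sort genes Adgre1 and Itgam, with group means as black lines and the background of each sample as a dotted line. Timd4, Cxcl13, Selp and Alox15 show no overlap between the groups, whereas Marco, Adgre1 and Itgam of IRF5-NP replicate 1 lie within or below the range of the PBS samples.

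The genes added by name were higher in IRF5-NP replicates 2 and 3 than in any PBS sample, and neither passed the test. The scavenger receptor Marco had 4085, 5218 and 5087 normalized counts in PBS replicates 1, 2 and 3, and 5199, 16556 and 15947 in IRF5-NP replicates 1, 2 and 3. IRF5-NP replicate 1 lay inside the PBS range, so the groups overlapped. Its log2 difference was 1.28 with a standard error of 0.50 (limma adjusted p = 0.160), and it was 1.82 (limma adjusted p = 0.00923) without IRF5-NP replicate 1. The lipoxygenase Alox15 had 2944, 10636 and 10441 normalized counts in PBS replicates 1, 2 and 3, and 12977, 19604 and 19457 in IRF5-NP replicates 1, 2 and 3. The groups did not overlap, and PBS replicate 1 was the sample farthest from the rest. The means were 6741 ± 5369.7 (SD, n = 2) and 17346 ± 3785 (SD, n = 3), a log2 difference of 1.61 with a standard error of 0.52 (limma adjusted p = 0.0881). Without PBS replicate 1 it was 0.69. With the replicate number as a block and 6 separate samples both genes passed, Marco at 1.22 (limma adjusted p = 0.0415) and Alox15 at 1.31 (limma adjusted p = 0.0358). In that fit 6.90% of all genes passed as higher and 11.0% as lower. It treats PBS replicates 2 and 3 as independent although their counts could not be told apart. The labels also do not name samples of equal number as pairs. Its p-values, here and below, are therefore given only beside those of the main fit. By limma, 2.52% of the 754 genes passed as higher and 7.03% as lower. Timd4, Cxcl13 and Selp were among the higher genes because they had been chosen so. The number of all genes that passed as higher was 19. It was 4 with background subtracted and 2 when IRF5-NP replicate 3 was left out, with 0 of the 5 resident genes among them. All 3 IRF5-NP samples lay above all 3 PBS samples for 17.0% of the genes and for 4 of the 5 resident genes, of which 3 were chosen on this contrast. In all 5 genes, PBS replicate 1 was the lowest PBS sample and IRF5-NP replicate 1 the lowest IRF5-NP sample.

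The genes of the sort, Adgre1 for F4/80 and Itgam for CD11b, were far above background in every sample, as the sort requires, and they were not level across the samples. Adgre1 had 6523, 9145 and 9049 normalized counts in PBS replicates 1, 2 and 3, and 8749, 25506 and 22544 in IRF5-NP replicates 1, 2 and 3. The difference of 1.15 on the log2 scale (standard error 0.48, limma adjusted p = 0.181) did not pass. It passed with the replicate block, at 1.07 (limma adjusted p = 0.0481), and without IRF5-NP replicate 1, at 1.64 (limma adjusted p = 0.0242). Itgam had 15550.4, 19762 and 19441 normalized counts in PBS replicates 1, 2 and 3, and 15177, 36473 and 34393 in IRF5-NP replicates 1, 2 and 3, a log2 difference of 0.61 (standard error 0.44, limma adjusted p = 0.473), and of 1.02 without IRF5-NP replicate 1 (limma adjusted p = 0.0580). For both genes IRF5-NP replicates 2 and 3 were the highest samples, and IRF5-NP replicate 1 lay in or below the PBS range.

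Set against Adgre1 in the same sample, the 3 chosen genes differed from those added by name. This division follows the choice of Timd4, Cxcl13 and Selp for higher values after IRF5-NPs. The share of all genes without overlap on this scale was not computed. Timd4 had 1.91, 2.15 and 2.28 normalized counts per 100 of Adgre1 in PBS replicates 1, 2 and 3, and 5.40, 4.63 and 5.60 in IRF5-NP replicates 1, 2 and 3. On this scale IRF5-NP replicate 1 no longer stood between the groups, and the within-group SD of Timd4 on the log2 scale was 0.15, against 0.71 for the level itself. The log2 difference of Timd4 relative to Adgre1 was 1.33. Cxcl13 had 54.9, 40.7 and 40.1 per 100 of Adgre1 in PBS replicates 1, 2 and 3, and 103, 70.3 and 84.5 in IRF5-NP replicates 1, 2 and 3, a log2 difference of 0.85. Selp had 12.4, 27.3 and 27.3 per 100 in PBS replicates 1, 2 and 3, and 42.9, 34.9 and 36.0 in IRF5-NP replicates 1, 2 and 3, a log2 difference of 1.04. In these 3 genes IRF5-NP replicate 1 was among the higher samples and the groups did not overlap.

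Marco and Alox15 overlapped between the groups on the same scale. Marco had 62.6, 57.1 and 56.2 per 100 of Adgre1 in PBS replicates 1, 2 and 3, and 59.4, 64.9 and 70.7 in IRF5-NP replicates 1, 2 and 3. Its log2 difference relative to Adgre1 was 0.12, with a within-group SD of 0.12, so that the ratio of Marco to Adgre1 was nearly level over the samples. Alox15 had 45.1, 116 and 115 per 100 of Adgre1 in PBS replicates 1, 2 and 3, and 148, 76.9 and 86.3 in IRF5-NP replicates 1, 2 and 3. Its highest value was that of IRF5-NP replicate 1 and its lowest that of PBS replicate 1, and the log2 difference of 0.46 was smaller than the within-group SD of 0.69. Relative to Itgam the log2 differences were 1.87 for Timd4, 1.39 for Cxcl13, 1.58 for Selp, 0.66 for Marco and 1.00 for Alox15, and on that scale the groups overlapped for Alox15 but not for Marco. Each sample is RNA from many cells, so that a larger number of resident cells and more RNA of these genes per cell cannot be told apart.

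**Figure D2:**
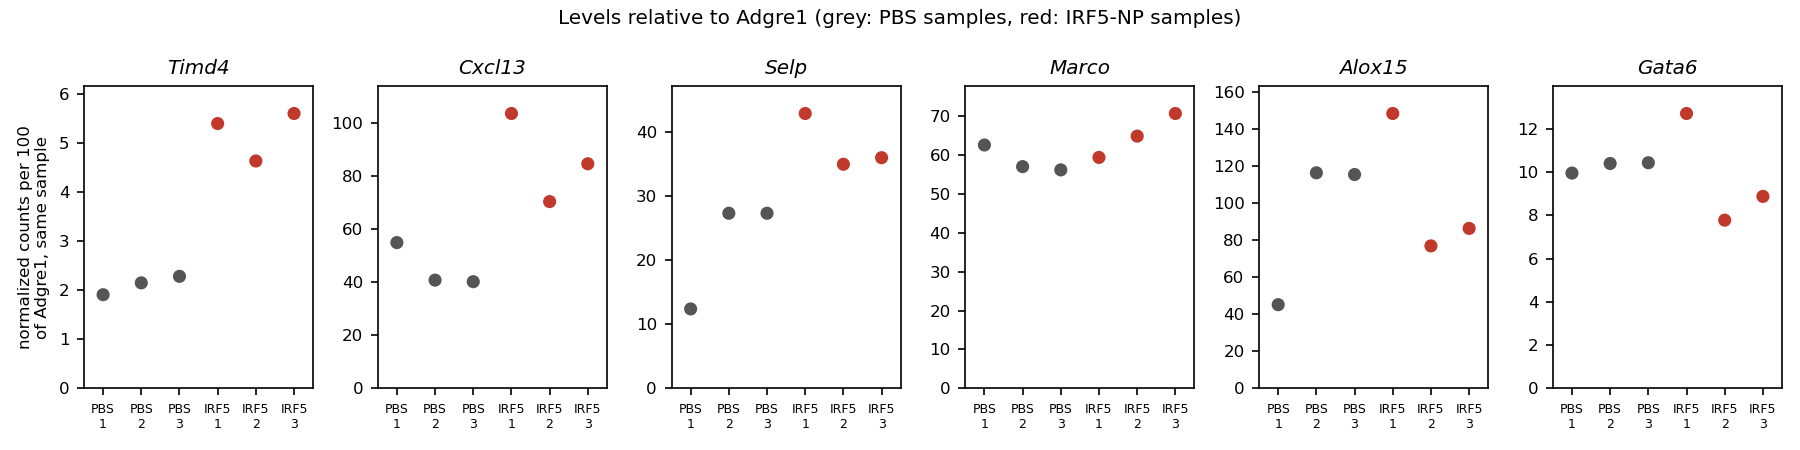
Normalized counts of the 5 resident genes and Gata6 per 100 normalized counts of Adgre1 in the same sample, on linear axes from 0 (grey, PBS; red, IRF5-NP). Timd4 lies between 1.91 and 2.28 in the PBS samples and between 4.63 and 5.60 in the IRF5-NP samples, whereas Marco, Alox15 and Gata6 overlap between the groups. Timd4, Cxcl13 and Selp, which do not overlap, were chosen for higher values after IRF5-NPs.

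Other genes of resident peritoneal macrophages were sparse on the panel, with 4 of 22 listed genes. By limma 0 of these 4 passed in either direction after adjustment (2.52% of all genes as higher and 7.03% as lower). At an unadjusted p under 0.05, 2 were higher (9.68% of all genes). The methods' t-test on the 5 samples counted passed 0 genes of the whole panel. With 6 separate samples it passed 43 genes after Benjamini-Hochberg and 0 after Benjamini-Yekutieli adjustment. Gata6, the transcription factor that defines the resident cells, had 649, 951 and 944 normalized counts in PBS replicates 1, 2 and 3, and 1112, 1983 and 2001 in IRF5-NP replicates 1, 2 and 3. Every IRF5-NP sample was above every PBS sample, with a log2 difference of 1.06 (standard error 0.32, limma adjusted p = 0.0746). Gata6 passed with the replicate block, at 0.97 (limma adjusted p = 0.00819), with 6 separate samples at the same difference (limma adjusted p = 0.0461), without IRF5-NP replicate 1, at 1.34 (limma adjusted p = 0.0338), and with the samples set to a common median, at 1.30 (limma adjusted p = 0.0416), where 2 of the 4 genes passed as higher. Relative to Adgre1 its difference turned to -0.090, with overlapping groups, and relative to Itgam it was 0.45, without overlap. Fn1, the gene of fibronectin, had 15752, 32947 and 31764 normalized counts in PBS replicates 1, 2 and 3, and 51654, 71276 and 64349 in IRF5-NP replicates 1, 2 and 3. Its log2 difference was 1.45 (standard error 0.42, limma adjusted p = 0.0683), and it passed with 6 separate samples, at 1.28 (limma adjusted p = 0.0422), but not with the replicate block (limma adjusted p = 0.0507). Without PBS replicate 1 its log2 difference was 0.94. The transcription factor genes Cebpb and Klf4 had log2 differences of 0.11 (limma adjusted p = 0.870) and -0.89 (limma adjusted p = 0.245), and that of Klf4 was -0.16 without PBS replicate 1. The median over the 4 genes was 0.59, against -0.03 over all genes.

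MHC class II genes were the main part of the small peritoneal and monocyte-derived macrophage genes that passed. Of 14 listed genes 10 were on the panel. By limma 5 of them passed as lower and 0 as higher (7.03% and 2.52% of all genes). At an unadjusted p under 0.05, 7 were lower and 0 higher (15.6% and 9.68% of all genes). The median log2 difference of the 10 genes was -1.95. The MHC class II gene H2-Aa had 45667, 62009.9 and 60759 normalized counts in PBS replicates 1, 2 and 3, and 7648, 6067 and 5917 in IRF5-NP replicates 1, 2 and 3, and fell by 3.03 on the log2 scale (standard error 0.29, limma adjusted p = 0.000929). H2-Ab1 and H2-Eb1, Cd74, the chaperone gene of MHC class II, and Itgax, the gene of CD11c, were the others that passed. All 5 passed whichever sample other than PBS replicate 1 was left out. Without PBS replicate 1 the log2 difference of H2-Aa was -3.24 and that of Itgax -2.10. With background subtracted H2-Aa, H2-Ab1, H2-Eb1 and Cd74 passed, and Itgax did not (limma adjusted p = 0.282). The mannose receptor gene Mrc1 had 8936, 2145 and 2094 normalized counts in PBS replicates 1, 2 and 3, and 1667, 840 and 883 in IRF5-NP replicates 1, 2 and 3. PBS replicate 1, the lowest PBS sample for the resident genes, was by far the highest for Mrc1, whose log2 difference was -2.02 (standard error 0.58, limma adjusted p = 0.0664) and without this sample -0.98. With the replicate block, which passed 11.0% of all genes as lower, 7 of the 10 genes did so, among them Mrc1 (limma adjusted p = 0.00819) and the fractalkine receptor gene Cx3cr1 (limma adjusted p = 0.0160). Ccr2, the monocyte chemokine receptor gene, differed by -0.13 (limma adjusted p = 0.828). Irf4, a transcription factor gene, and Retnla lay on the other side of 0, at 0.36 (limma adjusted p = 0.482) and 0.11 (limma adjusted p = 0.841).

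**Figure D3:**
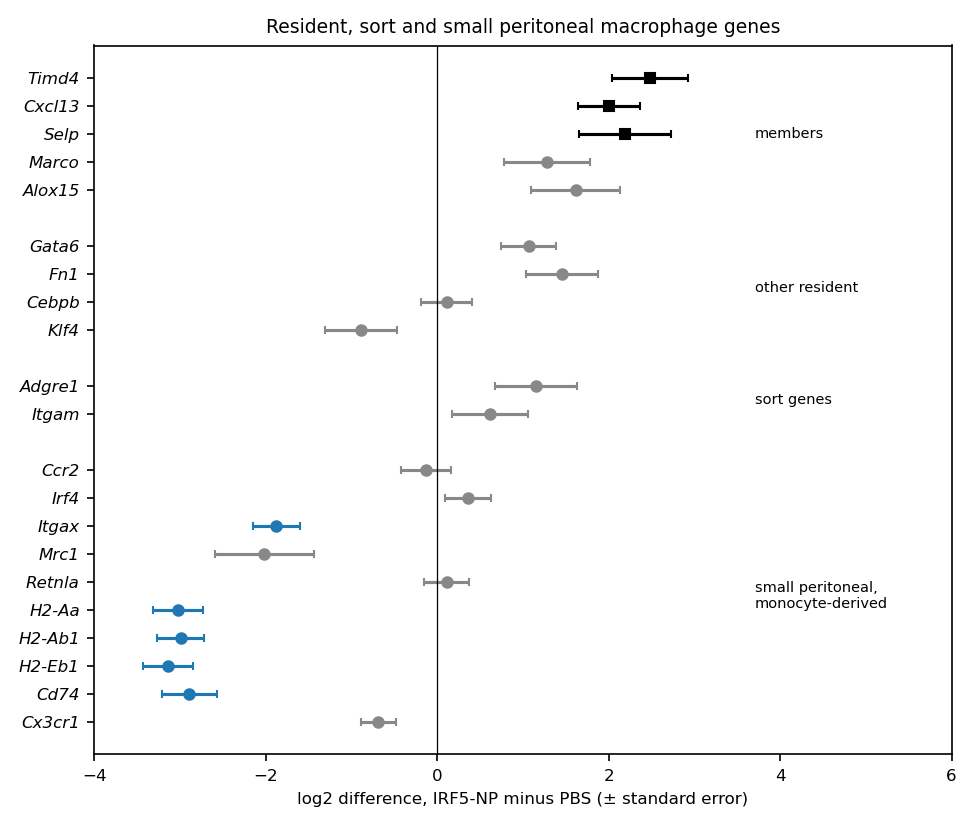
Log2 difference of IRF5-NP over PBS with its standard error for the 5 resident genes, the other resident genes, the sort genes and the small peritoneal or monocyte-derived macrophage genes. Black squares are the 3 genes chosen on this difference, blue points passed as lower by limma and grey points did not pass. The 5 resident genes lie between 1.28 and 2.48, the other resident genes between -0.89 (Klf4) and 1.45 (Fn1), and H2-Aa at -3.03.

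By limma, 2.52% of all genes passed as higher and 7.03% as lower. The panel also held genes of the pathways in which the resident genes act. The calls of Mertk, Havcr2, Cxcr4, Itgal and Alox5 given for them were all lost with background subtracted, at limma adjusted p of 0.107, 0.118, 0.0575, 0.0810 and 0.134, while their log2 differences in that setting were -1.27, -1.40, -1.99, -2.03 and 1.44. The standard error of Cxcr4 was 0.27 in the main fit and 0.27 in that setting. A call lost there thus does not show that a gene lies near background. Of 10 genes of phosphatidylserine recognition and apoptotic cell uptake, which include the chosen Timd4, Mertk and Havcr2 passed as lower and no gene but Timd4 as higher. Mertk, a receptor that recognizes apoptotic cells through bridging proteins, had 1833, 1179 and 1107 normalized counts in PBS replicates 1, 2 and 3, and 597, 616 and 642 in IRF5-NP replicates 1, 2 and 3, and fell by 1.23 on the log2 scale (limma adjusted p = 0.0218). Havcr2, the gene of the TIM-4 relative TIM-3, fell by 1.21 (limma adjusted p = 0.0360). Both calls were lost without each of IRF5-NP replicates 1, 2 and 3. Among these settings the highest limma adjusted p was 0.121 for Mertk, without IRF5-NP replicate 3, and 0.0860 for Havcr2, without IRF5-NP replicate 2. Without PBS replicate 1 the log2 differences were -0.89 for Mertk and -1.25 for Havcr2. Pros1, the bridging protein S gene, differed by 1.32 (standard error 0.41, limma adjusted p = 0.0811) and passed with the replicate block, at 1.15 (limma adjusted p = 0.00391), but differed by 0.83 without PBS replicate 1. The complement genes C1qa, C1qb and C1qc differed by -0.11, -0.28 and -0.44 and did not pass. The median over the list was -0.19.

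In the list around Cxcl13, 8 of 10 genes were on the panel. Apart from Cxcl13, which was chosen on this contrast, Cxcr4 alone passed, as lower, as did 7.03% of all genes. Cxcr4, the receptor of CXCL12, had 1150.0, 734 and 736 normalized counts in PBS replicates 1, 2 and 3, and 273, 209 and 286 in IRF5-NP replicates 1, 2 and 3, and fell by 1.85 on the log2 scale (limma adjusted p = 0.00567). It passed whichever sample other than PBS replicate 1 was left out, and without PBS replicate 1 the log2 difference was -1.53. Cxcr5, the receptor of CXCL13, had 28, 22.8 and 25.0 normalized counts in PBS replicates 1, 2 and 3, and 22.9, 37.5 and 62.4 in IRF5-NP replicates 1, 2 and 3, below the background in all but IRF5-NP replicate 2. The lymphotoxin genes Lta and Ltb did not pass, with no more than 38.6 normalized counts in any sample.

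Of 10 genes of selectins and adhesion, which include the chosen Selp, Itgal, the CD11a integrin gene, passed as lower and no gene but Selp as higher. Of all genes 7.03% passed as lower and 2.52% as higher. Itgal had 401, 714 and 745 normalized counts in PBS replicates 1, 2 and 3, and 146, 152 and 166 in IRF5-NP replicates 1, 2 and 3, and fell by 1.80 (limma adjusted p = 0.00844), which was lost without IRF5-NP replicate 3 (limma adjusted p = 0.0650). Selplg, the ligand of P-selectin, had 3319, 3437 and 3464 normalized counts in PBS replicates 1, 2 and 3, and 3987, 6463 and 7343 in IRF5-NP replicates 1, 2 and 3. The groups did not overlap, and the log2 difference was 0.76 (standard error 0.30, limma adjusted p = 0.160), which passed without IRF5-NP replicate 1, at 1.03 (limma adjusted p = 0.0328). Itgb2, whose product pairs with the products of Itgam and Itgal, differed by 1.15 (limma adjusted p = 0.0715) and passed with the replicate block, at 1.06 (limma adjusted p = 0.0169). Sele, the gene of E-selectin, was below background in every sample.

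Among the lipid-oxidizing enzymes around Alox15, 7 of 10 were on the panel. Alox5, the 5-lipoxygenase of leukotriene synthesis, had 609.7, 941 and 871 normalized counts in PBS replicates 1, 2 and 3, and 1507, 2436 and 2139 in IRF5-NP replicates 1, 2 and 3. It rose by 1.42 on the log2 scale (standard error 0.28, limma adjusted p = 0.0218). Alox5 was the 1 gene of this list to pass, where 2.52% of all genes passed as higher and 7.03% as lower. Leaving out either of IRF5-NP replicates 2 and 3 ended the call, with limma adjusted p of 0.0595 and 0.127. Without PBS replicate 1 the log2 difference was 1.13. With the replicate block, which passed 6.90% of all genes as higher, 3 of the 7 genes did so, Alox5, Alox15 and the cyclooxygenase gene Ptgs1, the last at 0.57 (limma adjusted p = 0.0415). Ptgs2, the inducible cyclooxygenase, differed by -0.08. Of 8 scavenger receptor genes, Marco included, 0 passed in either direction by limma. At an unadjusted p under 0.05, 1 was higher and 2 were lower (9.68% and 15.6% of all genes). With the replicate block 1 passed as higher and 2 as lower (6.90% and 11.0% of all genes). Cd36 had 2896, 1848 and 1769 normalized counts in PBS replicates 1, 2 and 3, and 1455, 3373 and 3290 in IRF5-NP replicates 1, 2 and 3, so that its groups overlapped. Cd163, the haptoglobin receptor gene, had 2310.4, 425 and 423 in PBS replicates 1, 2 and 3, and 206 to 210.5 in the IRF5-NP group. Its log2 difference was -2.24 (limma adjusted p = 0.0579), and without PBS replicate 1 it was -1.02. Cd163 passed as lower with the replicate block, at -1.83 (limma adjusted p = 0.0476).

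Markers of other cells that also use these genes were read in the same samples, and their part in the differences was not tested. Of 7 platelet and megakaryocyte genes, which matter for Selp, Pf4 was on the panel, with 11565, 3172 and 3268 normalized counts in PBS replicates 1, 2 and 3, and 7196, 12007 and 14705 in IRF5-NP replicates 1, 2 and 3. IRF5-NP replicates 2 and 3 were the highest samples for both Pf4 and Selp, while PBS replicate 1 was high for Pf4 and the lowest for Selp. The log2 difference of Pf4 was 0.83 (limma adjusted p = 0.420), and it was 1.75 when PBS replicate 1 was left out. Of 4 endothelial genes on the panel, Flt1 was the most abundant, and their sum was 146 to 197 normalized counts in the PBS samples and 197 to 223 in the IRF5-NP samples. Sele and Cdh5 were below background in most or all samples. The B cell gene Ms4a1 had 25.9, 18.6 and 16.3 normalized counts in PBS replicates 1, 2 and 3, and 50.5, 60.6 and 75.4 in IRF5-NP replicates 1, 2 and 3, and it was above background in IRF5-NP replicates 1 and 2 alone. Ms4a1 passed as higher (limma adjusted p = 0.0351), and the call was lost without each of IRF5-NP replicates 1, 2 and 3 and with background subtracted. No size is given for this difference, since all PBS values lay below background. Of 7 mast cell genes on the panel, Hdc and Cpa3 passed as higher, as did 2.52% of all genes. The sum over all 7 was 249.9, 354 and 374 normalized counts in PBS replicates 1, 2 and 3, and 641, 993 and 974 in IRF5-NP replicates 1, 2 and 3. Hdc was the most abundant, and its call was lost without IRF5-NP replicate 3 (limma adjusted p = 0.121). Its log2 difference was 1.86, and 1.52 without PBS replicate 1. Kit, the receptor gene that defines mast cells, had 58.1, 71.4 and 53.8 normalized counts in PBS replicates 1, 2 and 3, and 49.5, 34.2 and 28.6 in IRF5-NP replicates 1, 2 and 3 (limma adjusted p = 0.245), the last of these below the background of its sample. Cpa3 was above background in 2 samples, and its call was lost without each of IRF5-NP replicates 1, 2 and 3. The sum of the neutrophil genes was 6658 in PBS replicate 1, 2187 and 2168 in PBS replicates 2 and 3, and 2528, 1581 and 1876 in IRF5-NP replicates 1, 2 and 3, with S100a8 the most abundant. Of these genes Csf3r alone passed, as higher, as did 2.52% of all genes. Its log2 difference was 0.88 (limma adjusted p = 0.0459), and the call was lost when either of IRF5-NP replicates 2 and 3 was left out. Without PBS replicate 1 the log2 difference of Csf3r was 0.91. With the replicate block S100a8 and S100a9 passed as lower (limma adjusted p = 0.0113 and 0.00101). The calls of Hdc, Cpa3 and Csf3r were lost with background subtracted.

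The likeness of 2 genes was measured as the root mean square difference between their log2 levels, each centred on its own mean, over the 5 samples counted. The nearest of the 629 other genes above background were taken for each gene. Since they share the pattern for which Timd4, Cxcl13 and Selp were chosen, their likeness is a description with no test. Cxcl13 was nearest to Timd4, at 0.34, and Hdc, Selp and P2rx1 were also among its 5 nearest, against a median of 1.38 over all other genes. The nearest to Cxcl13 were Bmp6, at 0.21, Hdc, S1pr1, Il27ra and Timd4. Among the 5 nearest to Selp were Serpinb2, at 0.32, Hdc, Timd4 and P2rx1. Hdc, the gene of histidine decarboxylase, which makes histamine, was among the 5 nearest of all 3 genes. It had 143, 221 and 242 normalized counts in PBS replicates 1, 2 and 3, and 415, 865 and 813 in IRF5-NP replicates 1, 2 and 3. Serpinb2, the gene of an inhibitor of plasminogen activators, had 1404, 8697 and 8463 normalized counts in PBS replicates 1, 2 and 3, and 8852, 23489 and 21778 in IRF5-NP replicates 1, 2 and 3, with the low PBS replicate 1 seen for Selp. Bmp6, a ligand of the BMP family, had 81.9, 84.8 and 86.4 in PBS replicates 1, 2 and 3, and 243, 402 and 325 in IRF5-NP replicates 1, 2 and 3, level within PBS as Cxcl13 was.

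**Figure D4:**
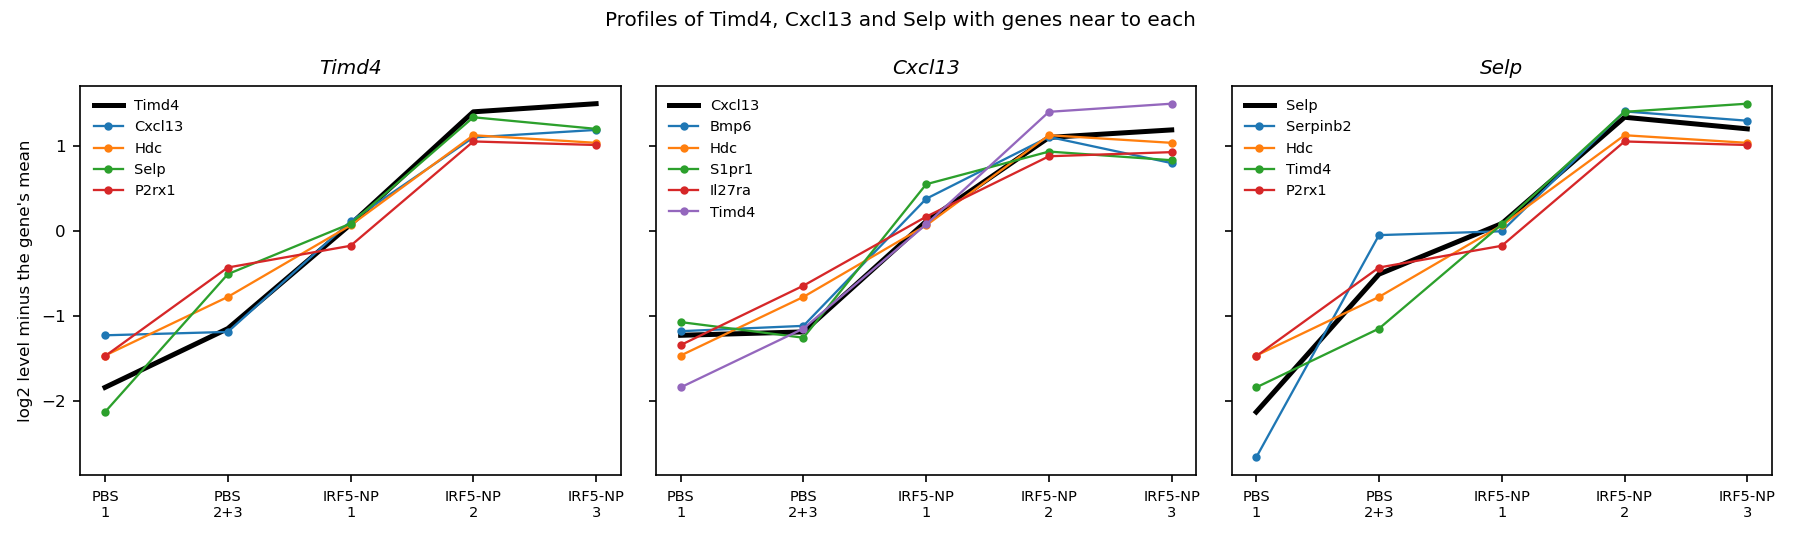
Log2 level of Timd4, Cxcl13 and Selp (black) and of the genes named as near to each (colors), centred on each gene's mean, in the 5 samples counted; lines join the points of 1 gene and stand for no order between samples. Each gene is lowest in a PBS sample and highest in IRF5-NP replicate 2 or 3, and Cxcl13, Bmp6 and S1pr1 differ least between PBS replicate 1 and the mean of PBS replicates 2 and 3.

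With each group centred on its own mean, which removes the difference for which the genes were chosen, the order changed. Adgre1 was then the second nearest of the 629 genes to Timd4, at 0.11, against a median of 0.55, while Itgam ranked 10, Marco 15, Gata6 21, Cxcl13 31, Selp 57 and Alox15 198. Within the groups, Timd4 thus followed the F4/80 gene more closely than it followed Cxcl13 or Selp. Selp was nearest to Alox15 among the resident genes, at rank 11 and a difference of 0.23, and Cxcl13 ranked 91 for it. For Cxcl13, Itgam ranked 19, Gata6 38, Timd4 112 and Selp 476 of 629. These ranks describe 5 samples, and PBS replicate 1 and IRF5-NP replicate 1 account for most of the spread that they measure.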

How the data were processed

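The authors counted transcripts with the NanoString nCounter assay and, per the methods for cultured macrophages, used NanoStringQCPro for quality checks and nSolver to scale each sample to its housekeeping genes (geometric mean). The deposited signal is a linear normalized count. The table holds 754 genes, 8 negative and 6 positive control probes, and the controls are raw counts. Dividing by 1 factor per sample gave whole counts for all 754 genes (tolerance 0.01 normalized counts). The recovered counts were used to compare samples and for counting intervals, and no count model was fitted to them. Of the gene symbols 744 matched RefSeq by symbol, 9 by a synonym and 1 not at all.

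Samples were grouped by their labels. Samples of a group that a chi-square test of recovered counts could not tell apart (genes with a summed count of at least 10) were averaged on the log2 scale, which left 5 samples. All 754 genes were fitted with limma 3.58.1 in R 4.3.3 (lmFit, then eBayes with trend) after adding a pseudocount of 1 and taking log2. Tests were two-sided at a Benjamini-Hochberg adjusted p of 0.05 over all genes. Standard errors are limma's moderated ones. Replicate numbers are shared between groups. Deviations from group means correlated across 478 genes at 0.236, 0.242 and 0.162 for numbers 1, 2 and 3, but also at 0.228 between PBS 3 and IRF5-NP 2 and at 0.158 between PBS 2 and IRF5-NP 3, so that numbers 2 and 3 cannot be told apart. The replicate block was fitted on 6 separate samples, since PBS replicates 2 and 3 count as 1. Its p-values, and those of the fit with 6 separate samples, thus treat these replicates as independent. They do not replace the main fit. Named genes are the resident genes, the sort genes, the 5 genes nearest in likeness to each of Timd4, Cxcl13 and Selp, and members of the pathway and cell type lists, of which those that pass are named first. Of the genes so chosen, 2 are not reported here. The lists of T cell, eosinophil, dendritic cell, and mesothelial and tumor epithelial genes had 1, 5, 5 and 0 genes on the panel, of which 0 passed by limma, also at an unadjusted p under 0.05. The resident genes and all lists were chosen with earlier results of these data known. Promoter letters come from RefSeq's table. Python 3.11.15 with matplotlib 3.10.9 drew the figures.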

Additional observations from a re-analysis of the deposited data

How the results depend on the processing

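Timd4, Cxcl13 and Selp were chosen for their difference in these samples, so its direction in other fits of the same values is no separate support. The direction was kept under every alternative run. Their log2 differences moved by more than the within-group SD only where they were set against a sort gene. Relative to Adgre1 they were 1.33, 0.85 and 1.04, and relative to Itgam, which was added once the values were known, Cxcl13 was at 1.39. Leaving out each sample in turn gave 2.14 to 2.94 for Timd4, 1.81 to 2.35 for Cxcl13 and 1.38 to 2.58 for Selp. The within-group SD of Selp, 0.87, is a wide limit, since it includes the distance of PBS replicate 1. With background subtracted, or without IRF5-NP replicate 3, 0 of the 5 resident genes passed. The differences reversed for Gata6 (-0.090) and Itgam (-0.54) relative to Adgre1, while Gata6 relative to Itgam was 0.45. Of all genes, 72 passed by limma. This number was 121 with 6 separate samples, 135 with the replicate block, 25 with background subtracted, 0 by the methods' t-test with either Benjamini-Hochberg or Benjamini-Yekutieli adjustment on the 5 samples counted (125 at an unadjusted p under 0.05, against 191 by limma, while 6 separate samples gave 43 with Benjamini-Hochberg and 0 with Benjamini-Yekutieli), and 31 with IRF5-NP replicates 2 and 3 averaged, also added then. Leaving out each sample other than PBS replicate 1 gave 21 (without IRF5-NP replicate 3) to 83, with 41 without IRF5-NP replicate 2. No count is given without PBS replicate 1, which leaves 1 counted PBS sample. Of the 72 genes 19 were higher, against 42 of 78 with a common median and 35 of 75 with quantile normalization. Fewer samples leave fewer degrees of freedom. For the other changes the cause was not tested. With background subtracted, values below 1 after subtraction were set to 1, so genes such as Sele had no spread between samples. The effect of this on the adjusted p of other genes was not tested. IRF5-NP replicate 3 had the fewest counts and the highest background, which limits what can be said of genes near 79.4 normalized counts. edgeR on recovered counts, set as an alternative, was not run, since the recovered steps did not pass a check of the low values in the IRF5-NP samples.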

Other observations

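Without both samples numbered 1, there remain 1 PBS sample and 2 IRF5-NP samples. This setting was added once the values were known and was not tested. The log2 differences were then 2.59 for Timd4, 2.33 for Cxcl13, 1.77 for Selp, 1.66 for Marco and 0.89 for Alox15.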
